A study of Mus musculus with 20 samples.

Results

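The clustered protocadherin genes lie in the mm9 window chr18:37080000-38005000 of the mouse genome, cut at 37400000 and 37750000 into an alpha, a beta and a gamma stretch. The members are the CpG positions of that window with 5 or more reads in at least 1 library, and the 100-bp tiles made from them. The rule uses no methylation value, though members were chosen with earlier results of these data known. The members number 1342 positions, of 2262552 on the autosomes and X, with 321 in alpha, 259 in beta and 762 in gamma. A single library covered between 567 and 917 of them. At the read limit, 37 window positions reached just 5 reads in their deepest library and averaged 1.82% methylation with the libraries pooled, and 55 positions that reached only 4 reads, and so stayed out, averaged 22.6%. The last member before the end of the window, at 38003657, had 5 or more reads in 1 gamete library, oocyte replicate 2, at 100%. The next covered position beyond the end, at 38006811, stood at 100% in all 4 gamete libraries.

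Clustered protocadherins are cell-surface adhesion proteins of neurons. Each alpha and gamma transcript joins 1 variable exon, which has its own promoter, to constant exons shared by the cluster, while each beta gene is a single exon. A neuron transcribes a small, varying choice of these promoters, and methylation of the CpG-rich promoters and variable exons is known to go with their silence. In the mouse embryo much of that methylation is laid down by Dnmt3b after implantation, later than the stages measured here. RefSeq lists 14 alpha, 22 beta and 22 gamma genes in assembly GRCm38.p6, of which 21 gamma genes are protein coding. The same list places Slc25a2, Taf7 and a pseudogene between the beta and gamma genes and Diaph1 after the gamma genes. Gene positions in mm9 were not used here, so tiles carry no gene names and the ends of the gamma stretch may hold sequence of those neighbours.

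The assay was reduced representation bisulfite sequencing (RRBS). It reads fragments of 150 to 500 bp cut by MspI at CCGG sites and so favours CpG-rich DNA. The 20 libraries form 10 groups of 2. The pronuclear groups are paternal or maternal pronuclei of Tet3 CKO zygotes with aphidicolin, of CKO zygotes without it (mock), of WT zygotes with aphidicolin and of WT mock zygotes, and the other groups are sperm and oocytes. CKO females carried Zp3-Cre and a floxed and a deleted Tet3 allele (f/-), and WT females were f/f. Zp3 drives Cre in growing oocytes, so the deletion is in the egg, and Tet3 is the dioxygenase that oxidises 5-methylcytosine in the zygote. Females were 7 to 10 weeks old and superovulated, and eggs of both genotypes were fertilised in vitro with sperm of adult C57BL/6J males, so the fathers carried no Tet3 deletion by the labels. Aphidicolin, an inhibitor of replicative DNA polymerases, was given at 3 µg/ml from 5 h after fertilisation, and pronuclei were isolated by hand from 12 h, told apart by size and distance from the second polar body, and frozen at 13 h. Libraries were typically made from about 20 pooled pronuclei with 21 PCR cycles.

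The libraries held between 22431861 and 68056783 CpG calls. Tiles outside the window that were methylated in sperm alone averaged 8.48% and 10.2% in CKO mock maternal libraries, against 3.05% and 3.40% in WT mock maternal libraries, over 11002 tiles. Tiles methylated in oocytes alone averaged 11.5% and 4.94% in CKO mock paternal libraries, against 3.41% and 4.76% in WT mock paternal libraries, over 2246 tiles. With aphidicolin, replicate 1 of CKO stood above replicate 2 in both pronuclei, at 8.78% and 4.74% in CKO maternal libraries on sperm-only tiles, against 4.33% and 4.53% in WT, and at 10.7% and 5.12% in CKO paternal libraries on oocyte-only tiles, against 5.18% and 4.22% in WT. The part of signal of the other parent in the results below was not tested. The labels name no separate animals for the 2 libraries of a group, so spreads and p-values cover these libraries alone and may be technical. Nor do they state if the paternal and the maternal pronuclei were taken from shared zygotes. Chromosomes are sorted in the mock pronuclear files and unsorted in the aphidicolin and gamete files, so the handling of the files cannot be told apart from the treatment or from the step from gamete to zygote.

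In both gametes most of the protocadherin window was unmethylated. Of 814 window positions covered in both sperm libraries, 82.7% stood at 10% or less in both, compared with 64.4% of positions outside the window. Only 7.49% stood at 50% or more in both sperm libraries, compared with 30.9% outside. In oocytes 84.5% of 755 window positions were at 10% or less in both libraries, compared with 69.9% outside, and 1.99% were at 50% or more, compared with 17.8% outside. No test was run of the window against the rest.

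Beta and gamma were higher in sperm than in oocytes at the positions these libraries shared, and in gamma the direction depended on the positions used. At the 730 window positions covered in all 4 gamete libraries, beta averaged 12.6% and 12.4% in sperm, against 5.02% and 2.59% in oocytes, over 123 positions. Gamma averaged 8.86% and 9.02% in sperm, against 3.49% and 3.67% in oocytes, over 463 positions. In both stretches each sperm library lay above each oocyte library, by 8.69 points in beta (the 4 differences between single libraries ran from 7.41 to 9.97) and by 5.36 points in gamma (5.19 to 5.53). At the 72 gamma positions covered in all 20 libraries the difference was -1.64 points, the other direction, and at the 19 such beta positions it was 4.64 points. In alpha the mean was lower in sperm and the libraries overlapped. It averaged 7.17% and 7.42% in sperm, against 13.1% and 6.74% in oocytes, over 144 positions, and oocyte replicate 1 alone stood above the rest. Over all 1090539 nuclear positions of this set, sperm averaged 32.9% and oocytes 19.6%, a difference of 13.3 points. An exact permutation of 2 libraries and 2 cannot reach 0.05, so these differences are given without a p.

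Methylation in sperm sat in a few sharp peaks among unmethylated tiles. Of 189 window tiles tested, sperm was higher at 20, or 10.6%, where 26.4% of all 203569 tiles were called higher, and lower at 6, or 3.17%, where 5.6% of all tiles were called lower. Calls required 10 points or more and, after Benjamini-Hochberg adjustment, a p under 0.05 in a quasi-binomial model fitted to all tiles with limma's shrinkage of the dispersion. Libraries count as apart where both of 1 group lie beyond both of the other and the group means differ by 10 points or more. They were apart upwards at 25 tiles, or 13.2%, where 29.7% of all tiles were, and downwards at 8, or 4.23%, where 6.9% were. Of 116 gamma tiles tested 13 were higher and 3 lower, of 38 beta tiles 6 and 0, and of 35 alpha tiles 1 and 3. The median difference over the 189 tiles was 0 points, beside 0.21 points over all tiles. With sperm replicate 1 alone as the sperm group there were 17 calls (12 higher, 5 lower), and 16 of the 26 tiles were called again. Without oocyte replicate 2 there were 21 higher and 13 lower. Limma on arcsine square roots of the tile levels called 18 higher and 5 lower.

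**Figure D1:**
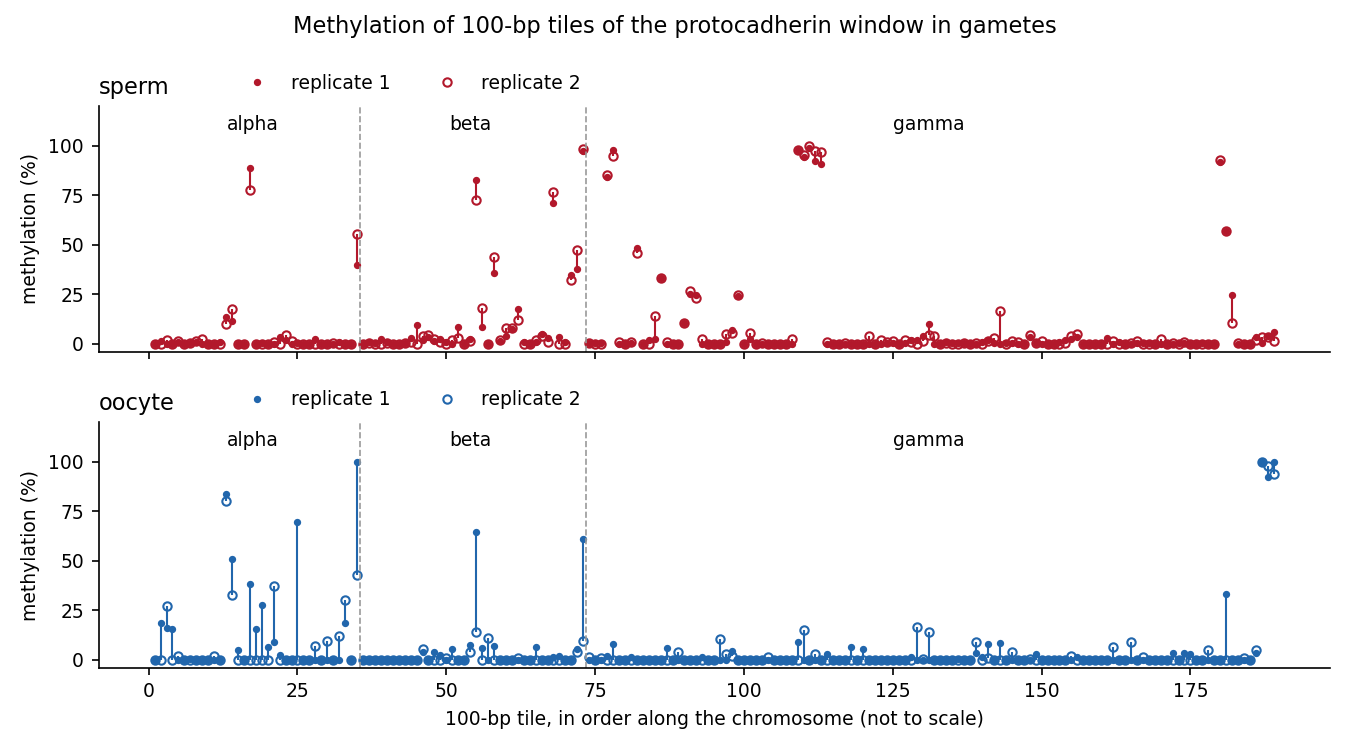
Methylation (%, y axis) of the 189 tiles of 100 bp, in order along the chromosome (x axis, not to scale), in the 2 sperm libraries (top) and the 2 oocyte libraries (bottom), with a line joining the libraries of a tile. Sperm means of 50% or more occur at 13 tiles, 9 of them in gamma, oocyte means of 50% or more at 5 tiles, 2 in alpha and 3 at the end of gamma, and the oocyte libraries split widely at several alpha tiles.

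Among gamma blocks of 5 or more positions, the highest in sperm and the one with the largest difference between the gametes was a block of 7 positions at chr18:37875835-37876038. It stood at 90.7% and 95.6% in sperm, against 0% and 1.57% in oocytes. Its tile 37875901-37876000 was called (difference 93.5 points, adjusted p = 0.00104 in the quasi-binomial model). Single tiles reached higher sperm values, among them 37869901-37870000, at 98.9% and 100% in sperm against 0% in both oocyte libraries (99.4 points), and 37859301-37859400, at 98.0% in both sperm libraries against 8.82% and 0% in oocytes. Tiles 37812601-37812700 and 37813601-37813700, near the start of gamma, had sperm between 84.4% and 97.7% and oocytes between 0% and 7.84%. All 5 tiles were called.

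Other tiles were partly methylated in sperm with little spread between its libraries. Tile 37829701-37829800 in gamma stood at 33.3% in both sperm libraries, against 0% in both oocyte libraries. Tile 37835001-37835100 stood at 25% and 26.6% in sperm, against 0% in both oocyte libraries. In beta, the highest sperm block was 37703454-37703839, 7 positions at 37.8% and 39.0% in sperm against 2.52% and 6.12% in oocytes. All 3 of these regions held called tiles (adjusted p of 0.0103, 0.00627 and 0.011 in the quasi-binomial model, the last for tile 37703701-37703800).

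The oocyte peaks were fewer and mostly at the edges of the window. Block 38002086-38002548, the last of the window, held 10 positions at 3.16% and 2.33% in sperm, against 98.8% and 97.7% in oocytes. Its 3 tiles were called lower in sperm, with differences between -98.0 and -91.2 points. In alpha, block 37139744-37140112 was the highest block in both gametes, with 8 positions at 11.2% and 13.8% in sperm against 48.6% and 36.7% in oocytes. Its tile 37139901-37140000 stood at 13.6% and 10.0% in sperm, against 83.9% and 80.5% in oocytes (adjusted p = 0.00132 in the quasi-binomial model).

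Tiles methylated in sperm held fewer covered CpG positions than tiles unmethylated in sperm. The rule did not use this feature, but a tile needed at least 2 covered positions, so a median of 2 is the lowest possible. The 13 window tiles with a sperm mean of 50% or more held a median of 2 covered positions, and the 161 with a mean of 10% or less held a median of 4. Across all tiles the medians were 3 and 7 positions for sperm. In oocytes the window medians were 3 positions in the 5 tiles with a mean of 50% or more and 3 in the 174 with 10% or less. The first rests on those 5 tiles alone. Across all tiles the oocyte medians were 3 and 5 positions. No test was run.

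The same tiles were followed into pronuclei. Of the 20 tiles called higher in sperm, 8 were covered in both WT mock paternal libraries, with group means between 2.39% and 80.8% and a median of 37.7%, and 19 in both WT mock maternal libraries, with means between 0% and 28.7% and a median of 0%. In WT aphidicolin paternal pronuclei 11 of the 20 were covered, with a median of 100%. Of the 6 tiles called lower in sperm, 5 were covered in WT mock paternal pronuclei, with a median of 21.6%, and all 6 in WT mock maternal pronuclei, with a median of 69.7%. The tile sets differ between the groups, so these medians are not compared.

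**Figure D2:**
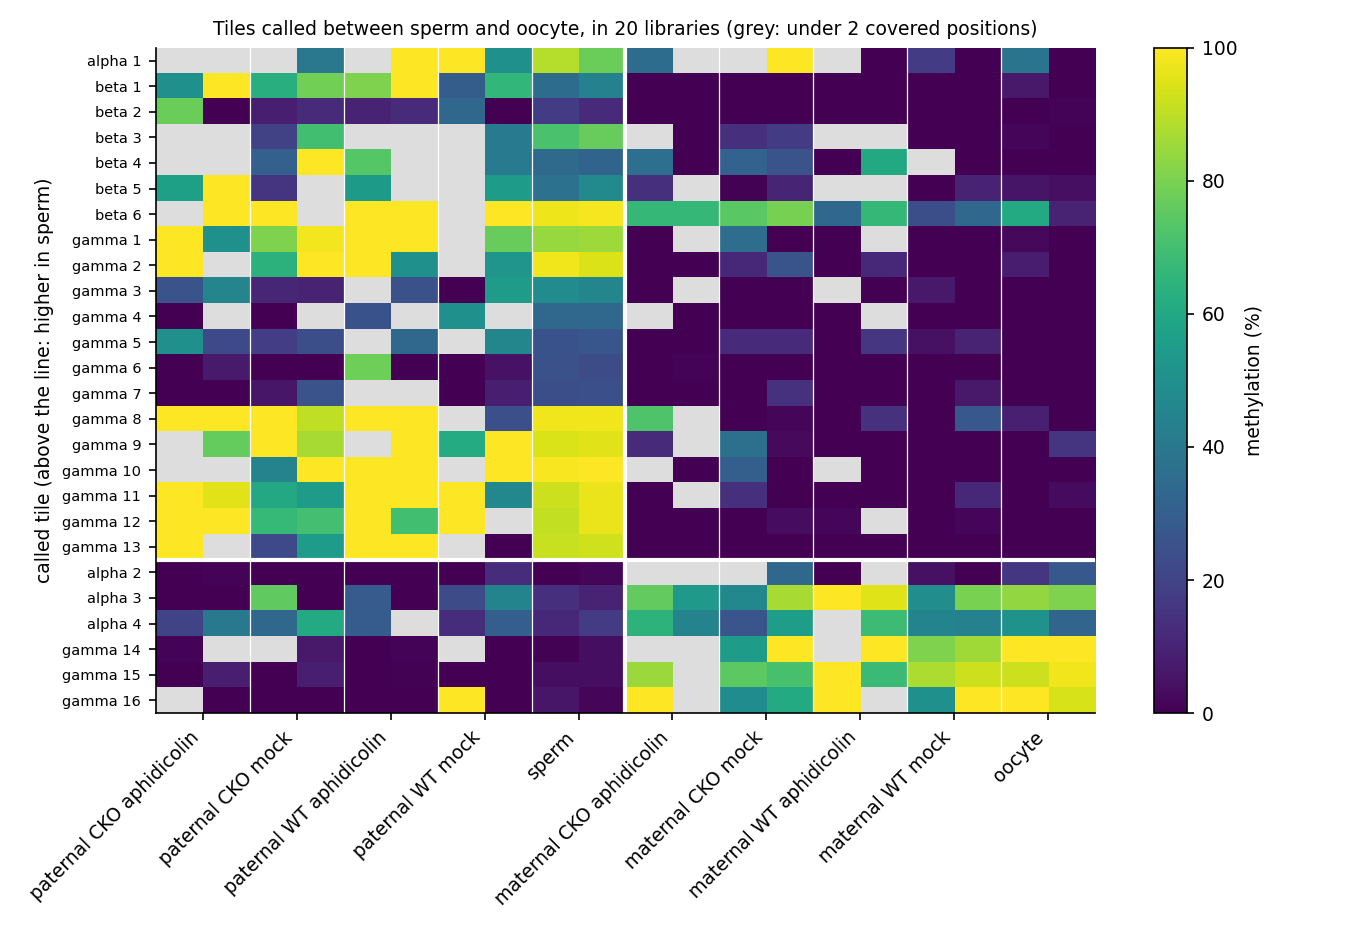
Methylation (colour, 0 to 100%) of the 26 tiles called between sperm and oocyte (rows, in chromosome order, numbered within alpha, beta and gamma, tiles higher in sperm above the line) in the 20 libraries (columns, 2 per group, paternal pronuclei and sperm on the left, maternal pronuclei and oocyte on the right); grey marks a tile with fewer than 2 covered positions. The upper rows range from dim to bright in sperm, with 11 of the 20 tiles at 50% or more in both sperm libraries. They are uneven and partly grey in paternal pronuclei and mostly dark or grey on the maternal side. Mock and aphidicolin columns of the paternal side differ in several gamma rows.

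The comparison of WT mock paternal pronuclei with sperm asked how far the paternal copy had moved from its gamete. Window positions at 75% or more in both sperm libraries stood at 67.8% and 75.0% in WT mock paternal pronuclei, against 94.2% and 94.3% in sperm, over 19 positions in 14 tiles. Outside the window the same class stood at 50.1% and 54.1% in WT mock paternal pronuclei, against 96.4% in both sperm libraries, over 173406 positions. These positions were chosen for high values in sperm, so the lower pronuclear values are a description. Both WT mock values of the window were above both WT mock values of the rest, but the class holds 19 positions and this was not tested. By sub-cluster, the 13 gamma positions stood at 60.6% and 71.8% in WT mock paternal pronuclei, against 94.5% and 95.1% in sperm. The 3 alpha positions stood at 66.7% and 75.2%, against 96.6% and 97.8% in sperm, and the 3 beta positions at 100% and 88.6%, against 90.5% and 87.3% in sperm, where the libraries overlapped.

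At the gamma peak of 37875835, block 37875835-37875987 of 5 positions covered in all 10 paternal libraries had the largest fall of any gamma block. It stood at 86.7% and 53.0% in WT mock paternal pronuclei, against 90.7% and 95.1% in sperm. Replicate 1 lay close to sperm and replicate 2 carried the fall. Block 37834918-37835175, also of 5 positions, was at 0% and 2.86% in WT mock paternal pronuclei, against 19.1% and 18.4% in sperm. The fall depends on the positions used. In its span, tile 37835001-37835100 stood at 45.9% in WT mock paternal replicate 2, against 25% and 26.6% in sperm. In replicate 1 this tile held 127 calls but fewer than 2 covered positions, so no level is given. Tiles 37834901-37835000 and 37835101-37835200 lay below sperm in both libraries.

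Sub-cluster means moved in different directions. Over the 201 window positions covered in all 10 paternal libraries, gamma averaged 3.89% and 5.55% in WT mock paternal pronuclei, against 5.65% and 5.92% in sperm, lower by 1.07 points, with the 4 differences between -2.04 and -0.11 points. Beta averaged 12.2% and 9.88%, against 8.97% and 8.74% in sperm, over 34 positions, and alpha 4.23% and 9.43%, against 2.19% and 2.06% in sperm, over 20 positions. In both, each pronuclear library lay above each sperm library, by 2.19 and 4.70 points on average. All 194997 positions of this set averaged 11.5% in WT mock paternal pronuclei and 17.8% in sperm, lower by 6.30 points. The gamma difference changed sign with positions weighted by reads (0.734 points) and was 0.0322 points at positions covered in all 20 libraries. At the 323 gamma positions covered in these 4 libraries the groups overlapped, at 4.67% and 7.80% in WT mock paternal pronuclei, against 6.27% and 6.40% in sperm.

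One tile of the 65 tested was called between WT mock paternal pronuclei and sperm. Tile chr18:37107801-37107900 in alpha, 5 positions, stood at 100% and 54.6% in WT mock paternal pronuclei, on 56 and 377 calls, against 1.06% and 1.22% in sperm (76.2 points higher, adjusted p = 0.0406, quasi-binomial model with limma shrinkage). That is 1.54% of the window tiles called higher, where 0.572% of all 61904 tiles were, and 0 were called lower, where 1.56% of all tiles were. The call was lost with limma on arcsine square roots (adjusted p = 0.101), with the dispersion floored before shrinkage (0.0505) and without any 1 of the 4 libraries (quasi-binomial adjusted p between 0.0617 and 0.894). Paternal pronuclei stood at 36.5% and 0% there with CKO and aphidicolin, at 9.18% and 10.5% in CKO mock and at 19.8% and 0% in WT with aphidicolin. Oocytes stood at 0% in both libraries. Maternal pronuclei stood at 15.9% and 0% in WT mock, at 0% and 28.8% in CKO mock and at 0% in the covered aphidicolin libraries. The adjoining tile 37107701-37107800 was not covered in WT mock paternal replicate 1. It stood at 74.5% in replicate 2, against 0.205% and 0.484% in sperm. The libraries were apart upwards at 3 tiles, or 4.62%, where 2.96% of all tiles were, and downwards at 2, or 3.08%, where 13.6% were.

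Positions chosen for low methylation in sperm can hardly be lower in another group, so their values are given as a description. Window positions at 10% or less in both sperm libraries stood at 2.32% and 4.39% in WT mock paternal pronuclei, against 0.643% and 0.746% in sperm, over 413 positions. Outside the window the values were 1.48% and 2.04% in WT mock paternal pronuclei, against 0.367% and 0.360% in sperm. Beta was the highest sub-cluster here, at 4.22% and 8.96% in WT mock paternal pronuclei, against 1.55% and 1.32% in sperm, over 64 positions.

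The maternal copy was set against oocytes. Window positions at 75% or more in both oocyte libraries stood at 71.4% and 90.5% in WT mock maternal pronuclei, over 13 positions in 8 tiles, and at 80.1% and 83.7% in the rest of the genome. Of 67 tiles tested in the quasi-binomial model, 0 were called in either direction, where 0.00136% of all 73688 tiles were called higher and 0.019% lower; limma on arcsine square roots also called 0, and 0 window tiles had an unadjusted p under 0.05. Gamma averaged 1.65% and 1.497% in WT mock maternal pronuclei, against 2.32% and 1.73% in oocytes, over 139 positions, lower by 0.455 points. Beta averaged 1.51% and 2.47%, against 6.48% and 0.671% in oocytes, and alpha 9.32% and 10.9%, against 25.6% and 8.46% in oocytes. In alpha and beta of this set the pronuclear values fell between the oocyte libraries. At the 134 alpha positions covered in these 4 libraries both pronuclear libraries lay below both oocyte libraries, at 5.81% and 4.40% in WT mock maternal pronuclei, against 13.7% and 7.01% in oocytes (a difference of -5.27 points). Beta overlapped in that set too.

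The oocyte peak at the end of gamma was still high in maternal pronuclei. Tile 38002301-38002400 stood at 87.6% and 92.3% in WT mock maternal pronuclei, against 92.2% and 97.7% in oocytes, and at 0% in both WT mock paternal libraries, and the maternal and oocyte values overlapped. The alpha tile 37139901-37140000 stood at 48.9% and 79.8% in WT mock maternal pronuclei, against 83.9% and 80.5% in oocytes, so both pronuclear libraries lay below both oocyte libraries, replicate 2 only just. It was not called (17.8 points lower, adjusted p = 1 in the quasi-binomial model). Of the 67 window tiles this was the 1 tile, or 1.49%, with both libraries lower by 10 points or more on average, where 7.66% of all tiles were, and 0 were higher, where 1.27% of all tiles were.

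**Figure D3:**
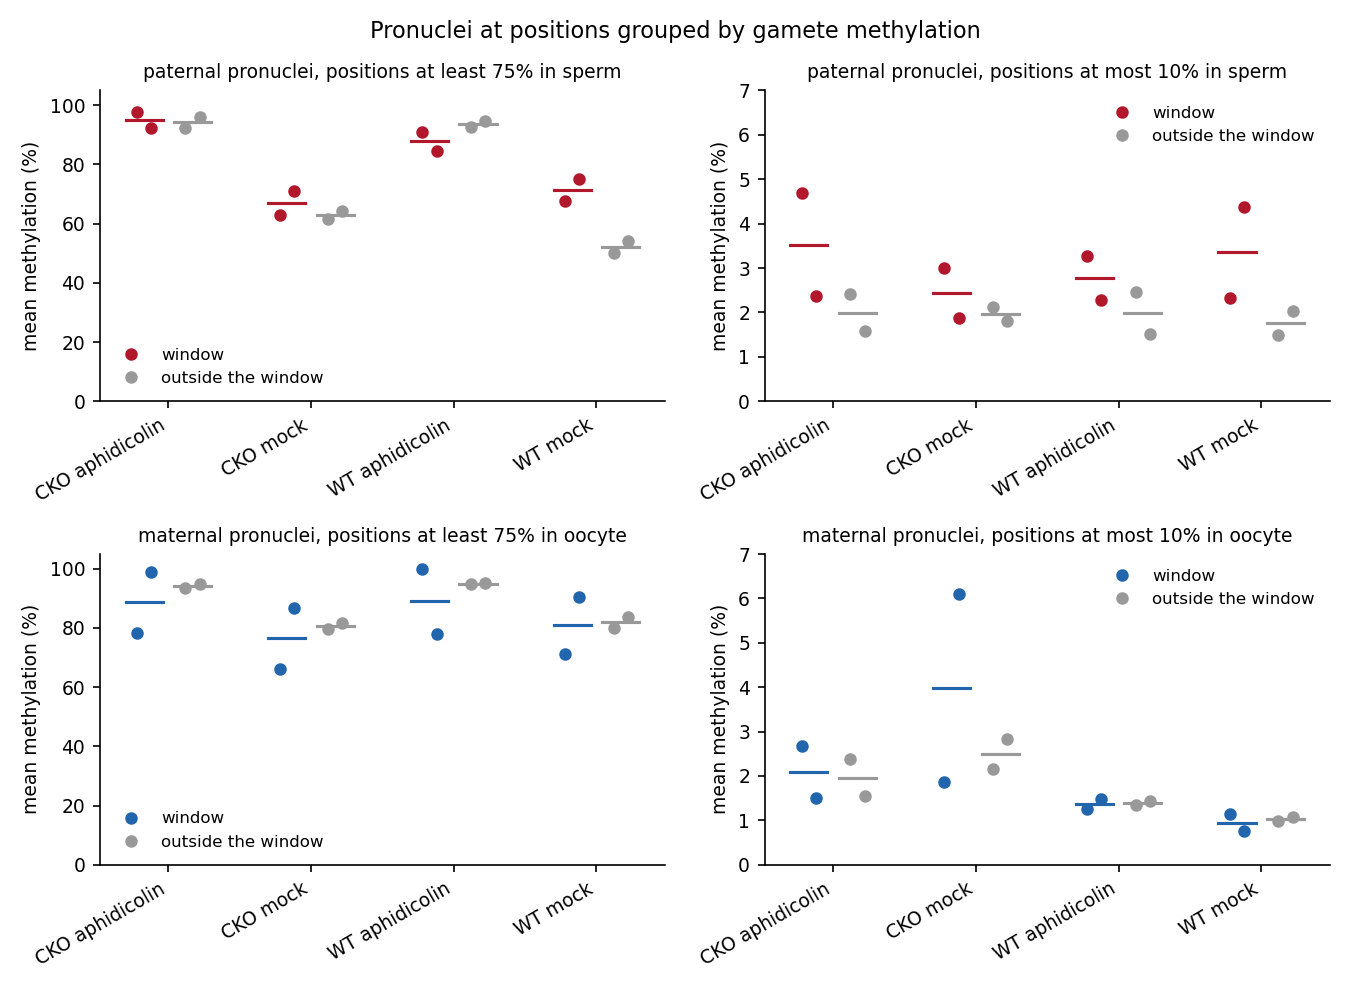
Mean methylation (%, y axis) of pronuclei at positions of 75% or more (left) or 10% or less (right) in both libraries of the gamete, for paternal pronuclei by sperm class (top) and maternal pronuclei by oocyte class (bottom), in the window (coloured) and outside it (grey); points are libraries and bars group means, and the left and right panels have different scales. Paternal mock groups lie below paternal aphidicolin groups at sperm-methylated positions, and CKO mock maternal replicate 2 stands alone at 6.09% over the 544 oocyte-unmethylated window positions covered in that group.

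Aphidicolin was compared with mock to ask which changes needed replication. At the 13 window positions of 75% or more in sperm that were covered in both WT groups, paternal pronuclei stood at 85.8% and 84.5% with aphidicolin, against 74.2% and 69.4% in mock. In CKO paternal pronuclei, 21 such positions stood at 97.5% and 91.0% with aphidicolin, against 69.8% and 58.6% in mock. In each genotype both aphidicolin libraries lay above both mock libraries. Outside the window WT paternal pronuclei stood at 93.0% and 94.6% with aphidicolin, against 53.8% and 58.6% in mock, and CKO paternal pronuclei at 92.4% and 96.1%, against 61.9% and 64.5% in mock. Whether the 2 genotypes differ in this was not tested.

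The gamma peak tile 37875901-37876000 showed the same order in CKO. It stood at 100% and 95.4% in CKO aphidicolin paternal pronuclei, against 60.4% and 54.8% in CKO mock. In WT it stood at 100% in both aphidicolin libraries, against 100% and 46.6% in mock, where the groups touch. Neither difference was called (adjusted p of 0.377 in CKO and 0.961 in WT in the quasi-binomial model). Tile 37595701-37595800 in beta stood at 80.6% and 100% in WT aphidicolin, against 29.6% and 66.3% in WT mock, with sperm at 35.5% and 43.8%, and was not called either (adjusted p = 1). This tile stood at 0% in all 8 maternal pronuclear libraries.

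No window tile was called between aphidicolin and mock in the quasi-binomial model, and limma also called 0. For WT paternal pronuclei the background was 0.241% of all tiles called higher and 0.00162% lower, and 1 window tile had an unadjusted p under 0.05. For CKO paternal pronuclei the background was 0.0178% higher and 0% lower, and 4 window tiles had an unadjusted p under 0.05. For maternal pronuclei 0.0285% of tiles were called higher and 0.00136% lower in WT, and 0.0149% higher and 0.00271% lower in CKO, with 0 window tiles at an unadjusted p under 0.05 in either. The libraries were apart at 1 higher and 3 lower window tiles in WT paternal pronuclei (1.54% and 4.62%, where 11.3% and 1.3% of all tiles were). In CKO paternal pronuclei they were apart at 1 higher and 2 lower (1.54% and 3.08%, where 12% and 1.75% were). The corresponding maternal counts were 1 higher and 0 lower in WT (background 6.57% and 1.26%) and 0 higher and 5 lower in CKO (7.46% lower, background 6.49% and 3.35%).

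The sub-cluster means under aphidicolin were spread widely. Paternal gamma averaged 7.93% and 4.12% with aphidicolin, against 3.89% and 5.55% in mock, in WT, and 12.1% and 5.02%, against 5.08% and 3.88% in mock, in CKO. Paternal alpha averaged 5.71% and 0% with aphidicolin, against 4.23% and 9.43% in mock, in WT, and 2.39% and 5.16%, against 13.0% and 0.619% in mock, in CKO. The libraries overlapped in these 4 comparisons. CKO aphidicolin replicate 1, the higher in paternal gamma, was also the higher at oocyte-only tiles. In the maternal set gamma itself averaged 3.12% and 1.70% in CKO aphidicolin maternal pronuclei and 2.32% and 1.73% in oocytes. A link between these values was not tested. All nuclear positions averaged 18.3% with aphidicolin and 11.5% in mock in WT. At positions covered in the 4 libraries compared, WT paternal alpha separated downwards, at 2.93% and 1.38% with aphidicolin, against 8.58% and 8.90% in mock (39 positions). In the same kind of set CKO paternal gamma separated upwards, at 10.3% and 7.04% with aphidicolin, against 6.24% and 6.19% in mock (329 positions). In WT maternal pronuclei each aphidicolin library lay above each mock library in alpha (25 positions) and beta (48 positions). Alpha stood at 21.3% and 15.3% against 9.32% and 10.9%, and beta at 4.23% and 4.17% against 1.51% and 2.47%. All nuclear positions of this set separated the same way, at 14.72% and 14.84% with aphidicolin against 11.95% and 12.51% in mock. The 3 alpha positions covered in all 20 libraries stood at 100% and 96.7% with aphidicolin, against 43.0% and 73.1% in mock. The CKO maternal libraries overlapped in all 3 stretches.

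**Figure D4:**
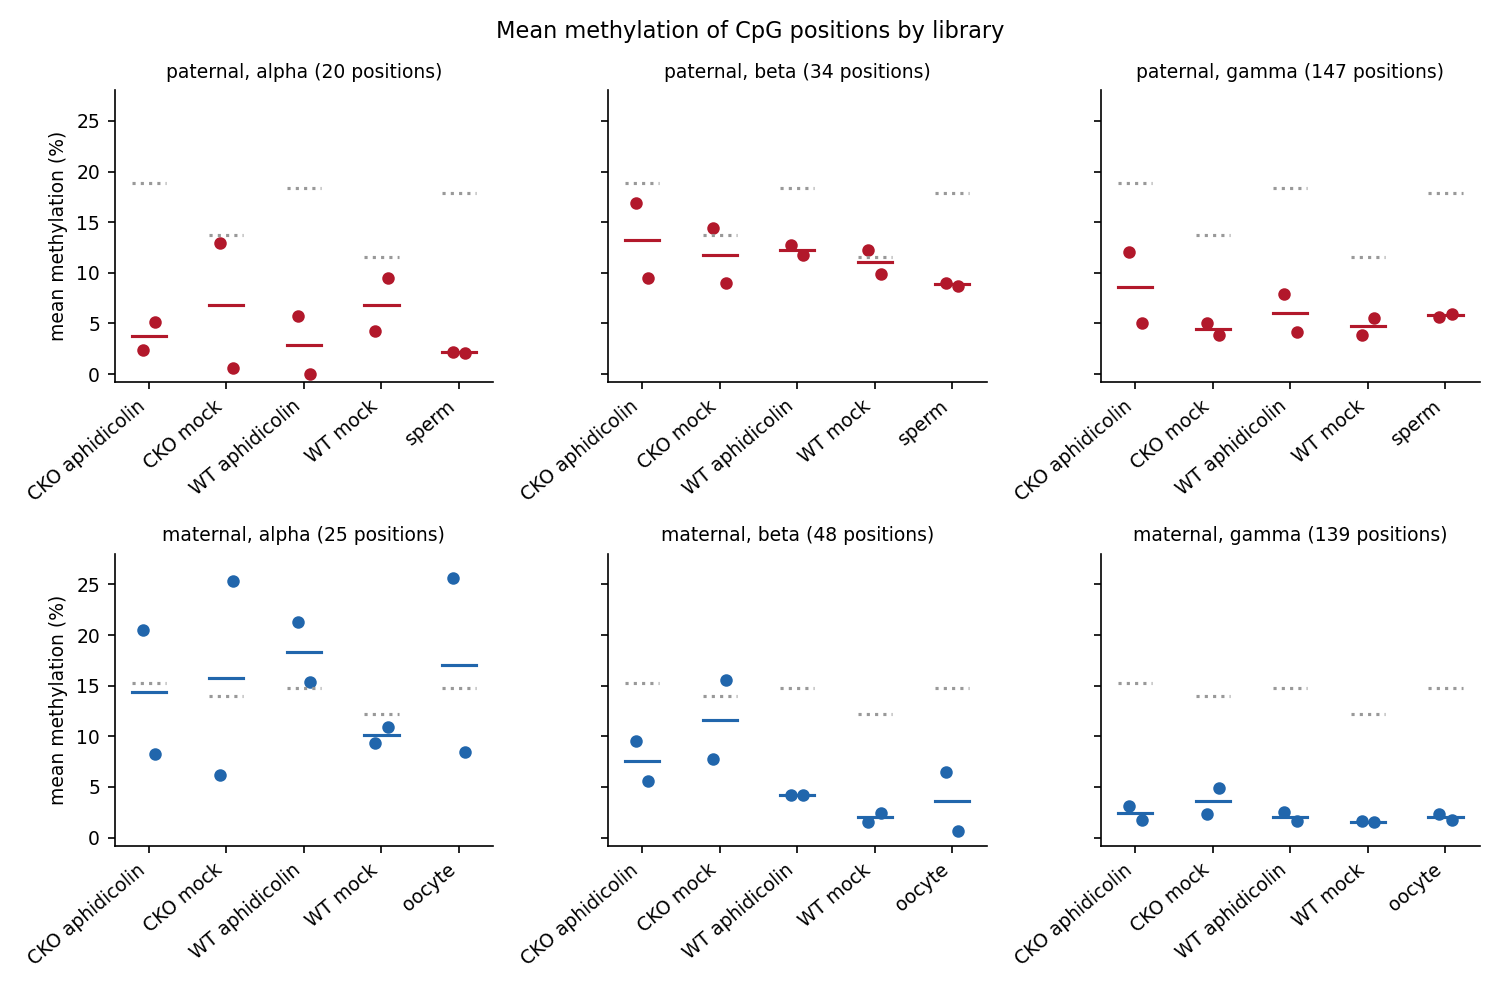
Mean methylation (%, y axis) of alpha, beta and gamma positions in each paternal library and sperm (top) and each maternal library and oocyte (bottom), with points for libraries, solid bars for group means and dotted bars for the mean over all nuclear positions of the same set. Beta and gamma means lie below the dotted bar in all 10 groups. The alpha mean lies above it in oocytes and in WT aphidicolin and CKO mock maternal pronuclei. The alpha libraries of a group can lie far apart, as at 6.17% and 25.4% in CKO mock maternal pronuclei.

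The loss of maternal Tet3 was compared with WT within each treatment. In mock maternal pronuclei, beta averaged 7.71% and 15.5% in CKO, against 1.51% and 2.47% in WT, over 48 positions, and both CKO libraries lay above both WT libraries (9.63 points, the 4 differences between 5.25 and 14.0). Gamma averaged 2.35% and 4.91% in CKO, against 1.65% and 1.497% in WT, over 139 positions (2.05 points, between 0.699 and 3.41). Alpha averaged 6.17% and 25.4% in CKO, against 9.32% and 10.9% in WT, and overlapped. All positions averaged 13.9% in CKO and 12.2% in WT. At sperm-only tiles, CKO mock maternal libraries stood above WT as given above, and the part of this in the beta and gamma difference was not tested.

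Much of the CKO excess sat in replicate 2. At window positions of 10% or less in both oocyte libraries, CKO mock maternal pronuclei stood at 1.73% and 6.27%, against 1.05% and 0.833% in WT mock, over 496 positions. Outside the window the values were 2.15% and 2.83% in CKO, against 0.957% and 1.07% in WT. In alpha these positions stood at 0.463% and 14.6% in CKO, against 4.29% and 1.45% in WT, and in beta at 3.31% and 10.7%, against 0.915% and 0.244% in WT.

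Single blocks show the split. Block 37456251-37456417 in beta, 7 positions, was at 0% and 27.9% in CKO mock, against 0% in both WT mock maternal libraries. Block 37425545-37425772 in beta was at 0% and 24.2% in CKO, against 0% and 0.25% in WT, and block 37249576-37249752 in alpha at 0.403% and 28.5%, against 0.273% and 3.07% in WT. In each, CKO replicate 1 was at or near 0, so these differences rest on 1 library, and at the alpha block oocyte replicate 1 stood at 34.5% and replicate 2 at 0%. Both CKO libraries were higher at beta tiles 37460901-37461000, with 19.8% and 15.4% in CKO against 0% in both WT libraries, and 37715101-37715200, with 74.5% and 79.5% in CKO against 24.1% and 33.3% in WT. Tile 37715101-37715200 stood at 97.3% and 98.6% in sperm and at 61.0% and 9.52% in oocytes, where the CKO values exceed both oocyte libraries and replicate 1 of the oocytes exceeds both WT values. Of the 20 tiles called higher in sperm than in oocytes, 19 were covered in both CKO mock and 19 in both WT mock maternal libraries, sets that differ by 1 tile, with a median of 6.94% and means of 0% to 77.0% in CKO mock maternal pronuclei, against a median of 0% and means of 0% to 28.7% in WT mock.

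These tiles were not called. Of 67 window tiles in the quasi-binomial model, 0 were called between CKO and WT mock maternal pronuclei (background 0.00136% higher and 0.00271% lower), 0 had an unadjusted p under 0.05, and limma called 0. Both libraries stood apart upwards at 4 tiles, or 5.97%, where 5.31% of all tiles did, and downwards at 0, where 2.72% did. The same CKO mock libraries entered the comparison with aphidicolin above. With aphidicolin, beta averaged 9.49% and 5.57% in CKO maternal pronuclei, against 4.23% and 4.17% in WT, and gamma overlapped. CKO aphidicolin replicate 1, the higher in beta, was also the higher at sperm-only tiles, as given above. At positions covered in all 20 libraries that beta difference was -2.29 points. No tile was called with aphidicolin either (background 0.00271% higher and 0.00679% lower, 0 at an unadjusted p under 0.05, and 0 by limma). The libraries were apart at 0 higher and 1 lower tile (where 2.32% and 2.04% of all tiles did).

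In paternal pronuclei no sub-cluster separated CKO from WT. In mock, beta averaged 14.4% and 9.01% in CKO, against 12.2% and 9.88% in WT, and gamma 5.08% and 3.88% in CKO, against 3.89% and 5.55% in WT. At the 18 window positions of 75% or more in sperm covered in both groups, CKO mock stood at 65.5% and 66.4%, against 66.0% and 73.6% in WT mock. Outside the window CKO mock stood at 62.4% and 65.2%, against 50.0% and 54.0% in WT mock. The window libraries overlapped between the genotypes, those outside did not, and the difference between window and rest was not tested. In aphidicolin, 17 such positions stood at 97.0% and 91.0% in CKO, against 95.0% and 88.9% in WT.

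The quasi-binomial model called 0 of 65 window tiles between CKO and WT mock paternal pronuclei (background 0.0291% higher and 0.00162% lower), with 3 at an unadjusted p under 0.05. In aphidicolin it called 0 (background 0% in both directions), with 0 at an unadjusted p under 0.05, and limma called 0 in both. The libraries were apart at 1 higher and 2 lower tiles in mock (1.54% and 3.08%, where 6.78% and 2.51% of all tiles were). In aphidicolin they were apart at 0 (where 2.7% and 1.96% were). Tile 37890701-37890800 in gamma stood at 42.3% and 50.3% in CKO mock, against 0% and 14.2% in WT mock, and at 0% in both sperm libraries (adjusted p = 1).

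Paternal and maternal pronuclei of WT mock zygotes were compared last. Beta averaged 8.38% and 6.98% in paternal pronuclei, against 0% and 0.0658% in maternal pronuclei, over 19 positions, and both paternal libraries were higher (7.64 points, between 6.91 and 8.38). At the 66 beta positions covered in these 4 libraries, paternal pronuclei averaged 14.1% and 10.1%, against 3.03% and 2.26% in maternal pronuclei. All 69415 positions of this set averaged 11.6% and 13.0% in paternal pronuclei, against 9.25% and 9.65% in maternal pronuclei. Gamma depended on the positions. Over 72 positions covered in all 16 pronuclear libraries it averaged 1.16% and 2.56% in paternal pronuclei, against 2.84% and 2.49% in maternal pronuclei. Over 302 positions covered in the 4 libraries it averaged 4.98% and 7.90%, against 2.88% and 3.25% in maternal pronuclei, with both paternal libraries higher.

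The tile closest to a call was in beta. Tile 37595701-37595800 stood at 29.6% and 66.3% in paternal pronuclei, against 0% in both maternal libraries (47.9 points, adjusted p = 0.0533 in the quasi-binomial model). Of 33 window tiles 0 were called, where 3.66% of all 38487 tiles were called higher and 3.97% lower, with 2 window tiles at an unadjusted p under 0.05 and 0 called by limma. Without WT mock paternal replicate 1 there was 1 call. The libraries were apart at 2 higher and 1 lower tile (6.06% and 3.03%, where 8.86% and 7.93% of all tiles were).

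The lack of calls in pronuclei has to be read with the spread between libraries. A median window tile held 159 calls per library in the paternal fit. The median dispersion that the model gave window tiles was 40.9 times that of binomial sampling. At that value a tile carried the information of about 3.9 independent calls per library. In the gamete fit the dispersion was 3.69 and the information 29.9 calls. Over all tiles, 31557 of 61904 paternal and 60589 of 203569 gamete tiles had an estimate of their own. The others took a value shared across tiles, so these figures are not spreads measured in the window alone. Some positions stood at 50% or more in one library of a group and 10% or less in the other. They made up between 1.24% and 7.95% of window positions in the pronuclear groups, 0% in sperm and 2.12% in oocytes. Outside the window they made up between 3.71% and 10.04% in the pronuclear groups, 0.0249% in sperm and 1.505% in oocytes. A missing call therefore does not show that groups are alike.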

How the data were processed

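Per the submitters' processing notes, reads were handled with Trim Galore and Bismark 0.10.1 on mm9. The deposited files give, per CpG position, counts of methylated and unmethylated calls, not normalised, and the deposited percent is their ratio. Read filters and whether duplicates were removed: not given in the sources used here. The chemistry does not separate 5-methylcytosine from 5-hydroxymethylcytosine.

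Positions needed 5 or more reads in every library of a fit. Tiles of 100 bp needed 2 such positions and 10 calls in each library. Libraries were fitted in 4 sets: gametes (4 libraries), paternal (10, with sperm), maternal (10, with oocytes) and pronuclear (16). Each fit used a quasi-binomial logistic model per tile over all nuclear tiles, with Pearson dispersion from groups in which every library expects 5 calls of both kinds, shrunk with limma 3.58.1 squeezeVar on log depth, floored at 1, and an F test with Benjamini-Hochberg adjustment (R 4.3.3). This specification was taken over from an earlier analysis of these data that tried several with call counts in view, so it is 1 choice among several. One dispersion serves all groups of a fit, although sperm varied less than pronuclei. Sub-cluster means weight positions equally and have no test.

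Members and lists were chosen with earlier results of these data known. Class limits of 75%, 10% and 50% and the sets of 4 libraries were chosen after values were seen. Named blocks followed a rule: positions less than 500 bp apart, at least 5 per block, and within each sub-cluster the highest, lowest and most different blocks; tiles named in the text were also chosen by value. Tests were checked on simulated counts drawn at the fitted dispersion, so the dispersion itself was not checked. With few changed tiles the gamete test made more false calls than its nominal rate. In a simulation added after that it kept to that rate. There the changes were denser, but fewer than the real calls and all upwards. The test of the paternal set recovered few changes. The range of depth over libraries is given in the report; p-values cover counting and library error only. Alternatives were another read minimum, floor order, limma, 1000-bp tiles, a replicate block and leaving out each library. The replicate numbers did not pair the libraries, with correlations of deviations between -0.0237 and 0.0443.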

Additional observations from a re-analysis of the deposited data

How the results depend on the processing

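The 26 calls between sperm and oocytes ranged from 17 to 34 when 1 library was left out, and the 6 lower tiles from 5 to 13. The call between WT mock paternal pronuclei and sperm fell to 0 with the dispersion floored before shrinkage, with limma, with the replicate number as a block and without any 1 of the 4 libraries (0 to 0); replicate numbers are not a pairing here. The block also gave 10 tiles lower in sperm than in oocytes in place of 6. Leaving out 1 library gave 0 to 1 calls between paternal and maternal pronuclei. With tiles of 1000 bp, 59 window tiles were tested in the paternal fit, of 50264 in all. WT mock paternal pronuclei against sperm gave 3 higher and 0 lower, where 1188 and 9359 of all tiles were called. Aphidicolin against mock in WT paternal gave 0 higher and 1 lower (all tiles 5348 and 88). In CKO paternal it gave 1 higher and 0 lower (all tiles 5232 and 100). CKO against WT in mock paternal gave 0 higher and 1 lower (all tiles 149 and 22). Paternal against maternal pronuclei gave 4 higher and 1 lower of 51 tiles, where 6132 and 3784 of all 40584 were called.

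Sub-cluster means depended most on which positions were used, and the cause was not tested beyond the number of positions. At positions covered in all 20 libraries (3 alpha, 19 beta, 72 gamma), sperm minus oocyte was -60.9 points in alpha, 4.64 in beta and -1.64 in gamma, where the sign reversed. There WT mock paternal minus sperm was 27.3 in alpha, 0.438 in beta and 0.0322 in gamma, also reversed. Aphidicolin minus mock was -20.1 in alpha and 3.72 in beta for WT paternal, 40.3 in alpha for WT maternal and -31.8 in alpha for CKO paternal pronuclei. CKO minus WT was 5.16 in beta for mock paternal, -11.1 in alpha for aphidicolin paternal, and -29.1 in alpha, -2.29 in beta (reversed) and -0.929 in gamma for aphidicolin maternal pronuclei.

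Weighted by reads, sperm minus oocyte was 3.77 in gamma, WT mock paternal minus sperm 0.734 in gamma (reversed), WT mock maternal minus oocyte -0.908 in gamma, aphidicolin minus mock in WT maternal pronuclei 18.3 in alpha, 1.24 in beta and -0.907 in gamma, CKO minus WT with aphidicolin 2.84 in maternal gamma, and paternal minus maternal 9.91 in beta. At 10 reads per position, sperm minus oocyte was 5.18 in gamma, aphidicolin minus mock 1.27 in WT maternal beta and paternal minus maternal 5.95 in beta. With tiles as the unit, sperm minus oocyte was 5.93 in gamma and paternal minus maternal 10.7 in beta and 1.8 in gamma. At positions covered in the 4 libraries compared, a choice made after seeing the data, WT mock paternal minus sperm was 5.22 in beta, aphidicolin minus mock 3.08 in WT paternal and 1.04 in WT maternal beta, and paternal minus maternal 9.42 in beta and 3.37 in gamma. Leaving out 1 library changed the sign of 17 of the 36 sub-cluster differences (8 of 12 in alpha, 4 in beta, 5 in gamma): WT mock maternal minus oocyte ran from -15.5 to 1.63 in alpha, aphidicolin minus mock in WT paternal pronuclei from -0.593 to 3.22 in gamma, and CKO minus WT in mock maternal pronuclei from 0.773 to 3.33 in gamma and 5.72 to 13.5 in beta. A block cannot change a difference of means in this balanced design. Depth limits the pronuclear sets: 20 alpha positions in the paternal and 25 in the maternal fit were covered throughout.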

Other observations

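Several tiles stood at opposite ends in the libraries of 1 group. They were chosen after their values were seen, and at the dispersion given above their calls are worth far fewer independent ones. Tile 38002501-38002600, within the oocyte peak at the end of gamma, was at 100% and 0% in WT mock paternal pronuclei on 66 and 100 calls, against 5.88% and 1.43% in sperm. Tile 37139901-37140000 in alpha, methylated in oocytes, was at 75.6% and 0% in CKO mock paternal pronuclei on 119 and 42 calls, against 23.2% and 45.05% in WT mock. Tile 37835101-37835200 in gamma was at 77.8% and 0% in WT aphidicolin paternal pronuclei, against 0% and 4.79% in WT mock, with sperm at 24.7% and 23.3%. No cause was tested.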
